A study of Mus musculus with 12 samples.

Results

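The genes described here are 41 interferon-stimulated genes and interferon regulatory factors (IRFs), chosen by name from a list. No measured value set the choice, but earlier results of these data were known when it was made. All 41 were listed in the mRNA table, which holds 41255 genes, and 33 were among the 10080 genes of the ribosome footprint table. The 8 members that the footprint table does not list were Ifit3, Mx1, Mx2, Irf4, Irf8, Rsad2, Ifih1 and Zbp1. The samples were 12 libraries from Ba/F3 cells, a mouse lymphoid line that grows on interleukin 3. Each clone carried a human RPL10 cDNA delivered by a retroviral vector, either WT or with the R98S mutation found in T-cell leukemia, and in every clone the mouse Rpl10 gene was knocked down with an shRNA. There were 3 R98S clones (11, 13 and 35) and 3 WT clones (28, 29 and 36), each a culture grown from 1 cell, and each gave 1 ribosome footprint (RPF) library and 1 mRNA library. All cells received cycloheximide at 100 µg/ml for 5 min before lysis, and no label mentions interferon. The comparison asks whether R98S and WT clones differ in these genes in mRNA, in footprints, or in footprints relative to mRNA (translation efficiency, TE).

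Type I interferons bind a receptor made of IFNAR1 and IFNAR2, and the kinases JAK1 and TYK2 on its inner side phosphorylate STAT proteins, among them STAT2. STAT2 joins IRF9 in the complex ISGF3, which binds the interferon-stimulated response element (ISRE) in promoters, whereas interferon gamma acts through a different element, the gamma-activated site (GAS). The induced genes encode RNA and DNA sensors, proteins that block viral replication, regulators that end the response such as USP18, and IRFs that amplify it. Many of them are also transcribed at a low level in cells that have met no interferon.

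The recovered depth was 20576796 to 23136595 reads in 5 mRNA libraries and 6617457 in that of WT clone 28, where 1 read is worth 2.69 normalized counts; footprint libraries held 3477723 to 10883086 reads. Of 15 pro-B markers, 10 were at 10 normalized counts or less in every mRNA library, among them Pax5, Rag1, Rag2, Vpreb1, Igll1, Il7r and Cd93, whereas Cd79a, Cd79b, Ptprc, Il3ra and Csf2rb were expressed; the label of a pro-B line therefore rests on few of its usual markers here. Of the markers of cells known for strong interferon responses, several were absent: Siglech and Ly6d of plasmacytoid dendritic cells and C1qa of macrophages were listed at 0 in all 6 mRNA libraries, and Csf1r reached at most 3.30 normalized counts. Summed levels of 6 macrophage markers were 99.2 to 147 in R98S and 124 to 189 in WT clones, mostly Cd68. Those of 6 T cell markers (57.6 to 94.5 against 17.3 to 56.4, mostly Cd3d), 7 mast cell and basophil markers (12613 to 15951 against 20544 to 26658, mostly Gata2, which fell) and 5 plasmacytoid dendritic cell markers (681 to 914 against 945 to 1358, mostly Tcf4) differed between genotypes without overlap. Within the mast cell and basophil list, Cpa3, a granule protease, went against the sum and rose, at 644, 253 and 787 against 13.4, 174 and 54.9 (log2 fold change 3.28 ± 0.78, adjusted p = 0.0506), and Hdc, Mcpt8 and Ms4a2 had higher R98S means with overlapping clones and no call. The calls of Gata2 (limma, adjusted p = 0.0805) and Cpa3 depended on single clones. With 1 clone left out, that of Gata2 was lost in 5 of 6 fits and that of Cpa3 in 3 of 6. The macrophage marker Lyz2 was at 24.7 in WT clone 29, 47.0 in WT clone 36, 1.72 in R98S clone 35 and 0 in the other 3 clones. The part of these markers in the results was not tested. In bulk libraries, fewer cells with a transcript and less of it per cell cannot be told apart.

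In mRNA 1 of 33 members passed the test between genotypes as higher and 2 as lower, against 3.03% and 3.91% of all genes tested. In footprints 0 of 31 passed as higher and 3 as lower, against 3.13% and 4.62%. Clones did not overlap for 9 of 33 members in mRNA and 10 of 31 in footprints, against 23.5% and 25.3% of all genes tested. In mRNA, Oas2 was the 1 member that rose in R98S clones, 6.32-fold, and Usp18 and Oasl2 fell; in footprints Usp18, Oasl2 and Samd9l fell. Samd9l fell in footprints without a called change in its mRNA. The IRFs, the RNA sensor Ddx58 and the abundant effectors Eif2ak2, Adar and Bst2 had overlapping R98S and WT clones in mRNA, except Irf5, and no IRF passed the test in either assay. None of the 26 members tested passed it for TE.

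The members were expressed at low to moderate levels. Per kilobase of exon, their median was 53.1 normalized counts over the 6 mRNA libraries, against 147 for the genes tested, and 7 of 41 lay above that median (6 of 41 on normalized counts not divided by length). The 41 include members too low to be tested, whereas the genes tested had passed the filter, so the comparison makes members look lower. Summed over all members, they took 0.0722 to 0.0915% of the mRNA libraries. The highest per length was Bst2 (tetherin, which holds budding virus at the cell surface), at 808, 1117 and 1221 normalized counts per kilobase in R98S clones 11, 13 and 35 and 1633, 946 and 928 in WT clones 28, 29 and 36. Next came Eif2ak2 (PKR, the kinase that stops translation on sensing double-stranded RNA), at 328, 333 and 326 against 230, 384 and 427 per kilobase. The third was Trim25, the ubiquitin ligase that activates RIG-I, at 253, 358 and 273 against 297, 343 and 355. For these 3 genes the clones of the genotypes overlapped, and the log2 fold changes in mRNA were -0.13 ± 0.26, -0.03 ± 0.23 and -0.18 ± 0.19 (SE, n = 3 clones per genotype); those of Bst2 and Eif2ak2 turn sign under other settings.

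**Figure D1:**
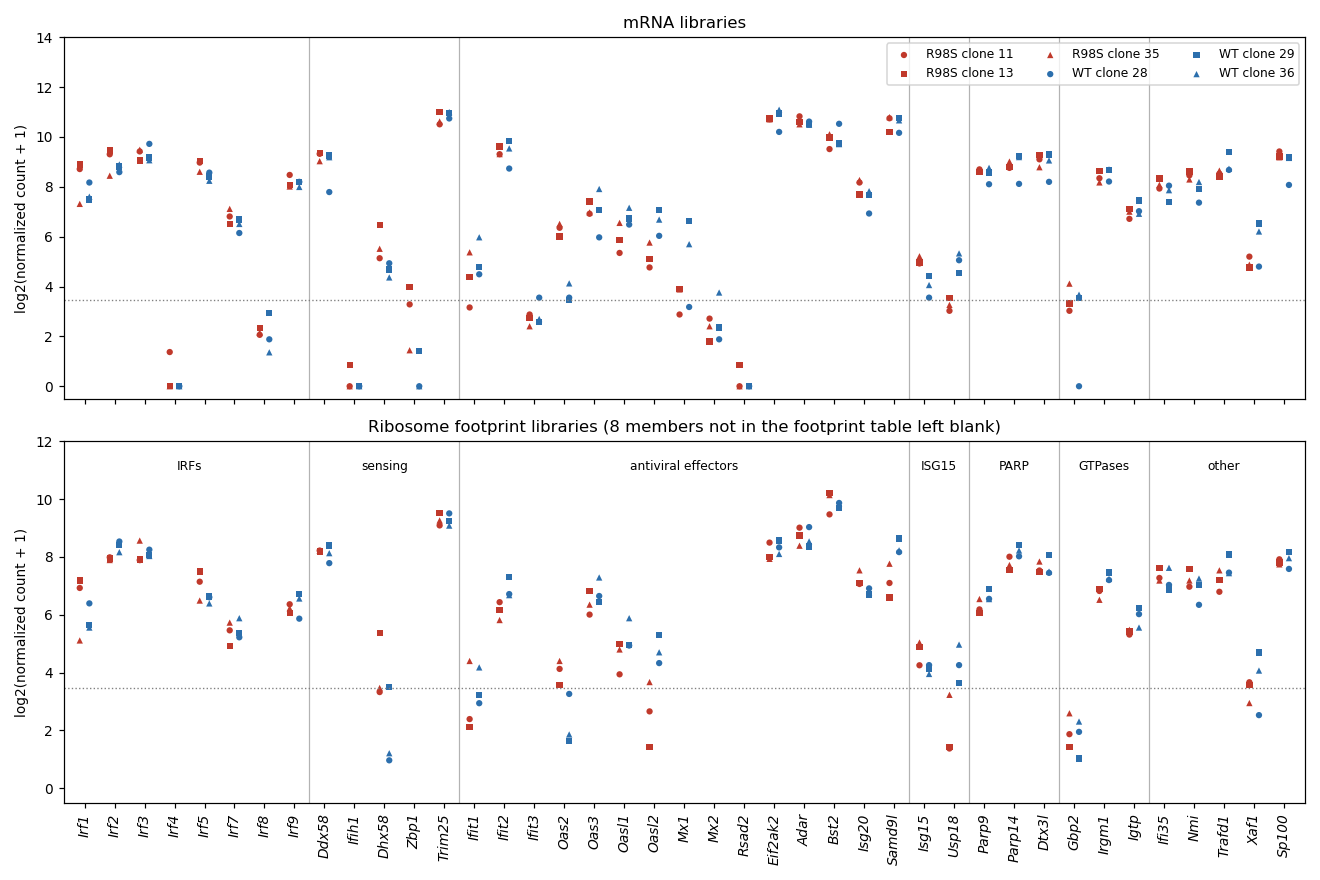
Level of all 41 members in each clone, as log2(normalized count + 1), in mRNA libraries (top) and footprint libraries (bottom), with R98S clones in red and WT clones in blue; the dotted line marks a normalized count of 10. Oas2 is the member whose red and blue points stand farthest apart in mRNA with red above, and Ifih1, Irf4 and Rsad2 lie at or near 0.

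At the other end, 8 members had a mean under 10 normalized counts in mRNA and were not tested: Gbp2, Ifit3, Mx2, Zbp1, Irf8, Irf4, Rsad2 and Ifih1. Irf4, a lymphoid IRF, was listed at 0 in 5 libraries with 2 reads in R98S clone 11. Ifih1 (MDA5, a sensor of long double-stranded RNA) and Rsad2 (viperin) each had 1 read, in R98S clone 13, and 0 in the other 5 libraries. A count of 0 allows up to 3 reads, which is 2.35 to 2.58 normalized counts in the deeper mRNA libraries and 8.06 in that of WT clone 28, so for these genes no difference was detectable at this depth. Zbp1, a sensor of Z-form nucleic acid singled out after its values were seen, had 8.73, 14.7 and 1.72 normalized counts in the R98S clones and 0, 1.65 and 0 in the WT clones. Its groups did not overlap, but the lowest R98S value and the highest WT value each rest on 2 reads.

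Promoter windows from RefSeq (build GRCm38.p6, 250 bases before to 50 after each start) were found for 33 of the 41 members; Dhx58, Mx1, Mx2, Oas2, Parp14, Parp9, Usp18 and Zbp1 have no entry in that table. The ISRE core GAAANNGAAA, on either strand, was present in 13 of the 33 members and in 30.2% of their 43 windows, against 3.44% of all 32851 windows. The core of the GAS element, TTCNNNGAA, which reads the same on both strands, was present in 10 of the 33 members and in 23.3% of their windows, against 8.30% of all. Genes with the ISRE core were Bst2, Ddx58, Eif2ak2, Gbp2, Ifih1, Ifit1, Ifit3, Igtp, Irf2, Irgm1, Isg15, Oas3 and Rsad2. Of the 4 members that passed a test, Oasl2 and Samd9l have windows, and neither window holds the core. Most of the 33 members lack it too, so this does not set Oasl2 and Samd9l apart. As examples with the core, the 200 bases before the start are given for Isg15 (chr4:156200819-156201018, minus strand) and Ifit1 (chr19:34640689-34640888, plus strand), which hold 3 overlapping and 2 separate copies. Examples without it are Oasl2 (chr5:114896734-114896933, plus strand) and Samd9l (chr6:3399572-3399771, minus strand). Sequences run 5′ to 3′ on the gene's strand, and capitals mark the ISRE core.
Isg15: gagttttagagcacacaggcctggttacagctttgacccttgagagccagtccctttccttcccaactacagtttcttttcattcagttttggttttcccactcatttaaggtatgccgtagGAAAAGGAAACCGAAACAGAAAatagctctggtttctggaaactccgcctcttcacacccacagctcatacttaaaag
Ifit1: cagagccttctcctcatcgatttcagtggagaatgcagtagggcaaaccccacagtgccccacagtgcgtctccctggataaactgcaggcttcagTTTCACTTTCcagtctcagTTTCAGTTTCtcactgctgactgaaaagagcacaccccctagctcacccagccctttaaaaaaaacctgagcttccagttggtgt
Oasl2: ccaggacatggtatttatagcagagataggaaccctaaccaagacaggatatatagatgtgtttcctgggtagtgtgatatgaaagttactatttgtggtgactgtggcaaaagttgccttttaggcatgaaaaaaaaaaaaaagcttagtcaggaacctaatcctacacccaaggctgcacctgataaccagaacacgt
Samd9l: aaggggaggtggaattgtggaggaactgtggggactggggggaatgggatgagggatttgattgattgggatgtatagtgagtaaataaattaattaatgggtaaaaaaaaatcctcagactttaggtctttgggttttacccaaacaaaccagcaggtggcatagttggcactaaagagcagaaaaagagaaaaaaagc
The copies in Isg15 begin 78, 72 and 66 bases before the start, and those in Ifit1 begin 104 and 85 bases before it. A match to these letters is a description of sequence, not evidence of a bound site, and the lack of one says only that the letters are not in the window.

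Of 8 IRFs, 6 were tested in mRNA and all 6 in footprints, and none passed at an adjusted p under 0.1. Their log2 fold changes in mRNA (limma on log2(value + 1), R98S minus WT) ran from 0.00 to 0.55, with a median of 0.33 against 0.01 for all genes; those of Irf3 and Irf9 turn sign under other settings. Irf7, the master inducer of interferon alpha genes, had mRNA at 111, 89.3 and 138 in R98S clones and 69.8, 102 and 90.1 in WT clones. These overlapped, with a log2 fold change of 0.36 ± 0.29 (SE, adjusted p = 0.578), as did its footprints (43.1, 29.3 and 52.1 against 36.3, 40.6 and 58.0). Irf9, the DNA-binding subunit of ISGF3, was at 355, 266 and 257 in R98S clones against 293, 291 and 254 in WT clones, which gave a log2 fold change of 0.06 ± 0.22 (adjusted p = 0.93); its footprints were 81.4, 66.2 and 73.9 against 57.3, 104 and 93.6. Neither gene differed beyond the clone spread.

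Irf5, an IRF of myeloid and B cells, was the only IRF with separate groups in mRNA, at 501, 523 and 388 in R98S clones against 379, 339 and 302 in WT clones. The log2 fold change was 0.46 ± 0.21 and did not pass (adjusted p = 0.288). Irf1, which activates interferon gamma targets, split the R98S clones: its mRNA was 418, 476 and 158, against 287, 179 and 194 in WT clones. Clone 35 was below all WT clones and clones 11 and 13 were above them, and its footprints had the same order of R98S clones, at 121, 145 and 33.6 against 83.1, 48.9 and 46.1. Its log2 fold change in mRNA was 0.55 ± 0.40 (adjusted p = 0.526) and became 1.05 (adjusted p = 0.0871) without R98S clone 35; in footprints it was 0.54 ± 0.49 (adjusted p = 0.573) and 1.19 (adjusted p = 0.0559) without that clone. Irf1 was given in full after its values were seen. Irf2, a relative of Irf1 that competes for the same sites, had lower footprints in each R98S clone (253, 246 and 237) than in any WT clone (370, 343 and 286), with a log2 fold change of -0.43 ± 0.19 and an adjusted p of 0.222. Irf8 was at 1.57 to 6.60 normalized counts of mRNA and was not tested. Exons of Irf9, Irf3, Irf5 and Irf7 overlap those of Rnf31, Bcl2l12, Tnpo3 and Phrf1 in the annotation, so shared reads could be counted to either gene.

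Of 5 genes of RNA and DNA sensing, among them the ligase gene Trim25, 3 were tested in each assay and none passed. Ddx58 (RIG-I, which detects viral RNA with 5′ triphosphates) had 639, 654 and 521 normalized counts of mRNA in R98S clones and 220, 610 and 581 in WT clones, so that WT clone 28 alone was low and the groups overlapped. Its footprints were 297, 290 and 296 against 220, 336 and 279. Dhx58 (LGP2, a regulator of RIG-I-like sensors) had 34.1, 87.6 and 44.7 in R98S clones and 29.5, 24.7 and 19.6 in WT clones. These did not overlap, and its log2 fold change of 1.05 ± 0.43 did not pass (adjusted p = 0.237). In footprints Dhx58 was at 9.04, 40.2 and 10.1 against 0.955, 10.4 and 1.32, overlapping at WT clone 29 and resting on 1 read each in WT clones 28 and 36; the footprint log2 fold change of 2.16 ± 0.81 (adjusted p = 0.161) became 2.96 (adjusted p = 0.0684) without WT clone 29.

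Of 15 antiviral effectors, 12 were tested in mRNA, and 1 rose and 1 fell; 10 were tested in footprints, and 2 fell. The gene that rose was Oas2 (chr5:120730333-120749853), one of the 2′-5′-oligoadenylate synthetases, which make the activator of RNase L on binding double-stranded RNA. Oas2 mRNA stood at 81.0 normalized counts in R98S clone 11, 63.1 in clone 13 and 90.3 in clone 35, against 10.7, 9.90 and 16.5 in WT clones 28, 29 and 36. Every R98S clone was above every WT clone, and the log2 fold change was 2.58 ± 0.38 (SE, n = 3 clones per genotype; limma, adjusted p = 0.00614). Oas2 stayed called without any 1 clone, with adjusted p from 0.00926 to 0.0377. Its footprints were sparse, at 16.5, 10.9 and 20.2 against 8.60, 2.08 and 2.64, separate but resting on 2 reads each in WT clones 29 and 36. The footprint log2 fold change of 1.78 ± 0.59 did not pass (adjusted p = 0.121), and without WT clone 28 it was 2.29 (adjusted p = 0.091). Adjusted p was 0.219 without WT clone 29 and 0.247 without WT clone 36. Oas2 met the minimum of 10 in footprints through the R98S clones (mean 15.8 against 4.44), and without any 1 of them the gene was below the filter.

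The neighbouring Oas3 (chr5:120753098-120777661, same strand), a longer synthetase, had 120, 170 and 125 in R98S clones and 61.8, 134 and 240 in WT clones. Its clones overlapped widely, with WT clones at both ends of the range. Oasl2 (chr5:114896936-114912234), an oligoadenylate synthetase-like protein, had 26.2, 33.6 and 53.3 normalized counts of mRNA in R98S clones and 64.4, 134 and 102 in WT clones. The groups did not overlap, and Oasl2 fell with a log2 fold change of -1.38 ± 0.39 (adjusted p = 0.0951). In footprints it was at 5.32, 1.68 and 11.8 against 19.1, 38.5 and 25.0, again separate, with a log2 fold change of -2.19 ± 0.60 (adjusted p = 0.0703). The R98S footprint values rest on 10, 2 and 7 reads, and their mean of 6.25 is below the minimum of 10. The calls of Oasl2 depend on single clones. In mRNA its adjusted p was 0.314 without R98S clone 11, 0.282 without R98S clone 13, 0.227 without WT clone 29 and 0.248 without WT clone 36. In footprints it was 0.173, 0.219, 0.17 and 0.159 without the same clones and 0.119 without WT clone 28. In mRNA it also missed the threshold with chromosome medians removed (0.104), with TMM scaling (0.1), without the filter (0.147) and at a minimum of 50 (0.134).

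Oasl1, the adjacent and similar gene, which holds back Irf7 translation in mice, had 39.7, 57.3 and 92.8 in R98S clones and 88.6, 105 and 142 in WT clones, with 1 R98S value inside the WT range; its log2 fold change was -0.87 ± 0.37 (adjusted p = 0.253). Because Oasl1 and Oasl2 are related in sequence, the split of reads between them is uncertain.

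Samd9l (chr6:3372257-3399572), a large cytoplasmic protein that restricts poxviruses and proliferation of blood cells, was abundant and even in mRNA, at 1719, 1169 and 1776 in R98S clones and 1147, 1727 and 1624 in WT clones. The log2 fold change in mRNA was 0.05 ± 0.23 (adjusted p = 0.938), and it turned to -0.13 without WT clone 28. Its footprints were 136, 95.5 and 217 in R98S clones and 287, 398 and 299 in WT clones. No R98S clone reached the lowest WT clone, and the footprints fell by 1.19 ± 0.29 on the log2 scale (adjusted p = 0.0467), to 0.456 of the WT mean. The footprint call was lost without R98S clone 11 (0.143), R98S clone 13 (0.183), WT clone 29 (0.113) or WT clone 36 (0.11), and held without R98S clone 35 (0.0106) or WT clone 28 (0.0914). It held in all 9 other settings, with adjusted p from 0.00386 to 0.0525.

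**Figure D2:**
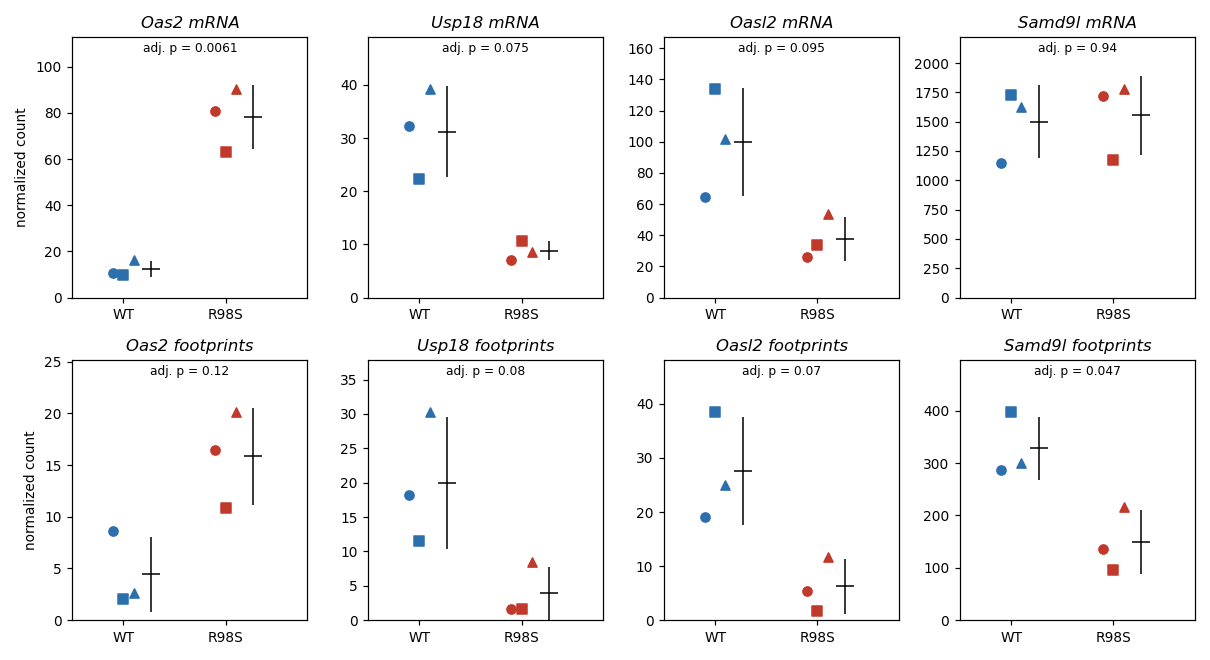
Normalized counts of the 4 members that passed a test, with mRNA in the top row and footprints in the bottom row, each point 1 clone (WT blue, R98S red), the bar beside each group its mean ± SD of 3 clones, and the adjusted p from limma in each panel. Oas2 lies higher in R98S clones, Usp18 and Oasl2 lower in both rows, and Samd9l lower in footprints but not in mRNA.

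The remaining effectors gave no call. Ifit1, which binds viral RNA lacking cap methylation, had 7.94, 19.7 and 40.4 normalized counts of mRNA in R98S clones and 21.5, 26.4 and 61.9 in WT clones, a spread within each genotype wider than the difference between them (log2 fold change -0.78 ± 0.62, adjusted p = 0.567). Its relative Ifit2, at 424 to 915 in mRNA, had footprints of 85.6, 71.2 and 55.4 in R98S clones and 104, 158 and 101 in WT clones. These footprint groups did not overlap, and the log2 fold change of -0.76 ± 0.27 did not pass (adjusted p = 0.148). Ifit3 was at 4.30 to 10.7 normalized counts, where reads may also fall on its near copy Ifit3b.

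Mx1, a dynamin-like GTPase that blocks influenza virus and that most inbred mouse strains carry in a defective form, spread widely among WT clones. It had 8.06, 98.1 and 50.9 normalized counts of mRNA in WT clones 28, 29 and 36 and 6.35, 13.9 and 13.8 in R98S clones. The value in WT clone 28 rests on 3 reads. WT clone 28 lay with the R98S clones, and the log2 fold change of -1.62 ± 0.80 did not pass (adjusted p = 0.334), whereas without WT clone 28 it was -2.61 (adjusted p = 0.0237). With all clones Mx1 was called lower in DESeq2 on recovered reads (adjusted p = 0.0428) and with library weights (0.0108), and not in edgeR (0.124). The macrophage marker Lyz2 was likewise higher in WT clones 29 and 36 than in WT clone 28 and the R98S clones, and its part in the Mx1 values was not tested. Mx1 was given in full after its values were seen. Isg20, an RNA exonuclease, had footprints of 133, 136 and 185 against 119, 103 and 108, separate but not called (log2 fold change 0.44 ± 0.22, adjusted p = 0.305). Adar, which edits adenosine in double-stranded RNA, overlapped in both assays, and 1365 bases of its exons also belong to Chrnb2 on the other strand.

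Isg15 and Usp18 form a pair in which ISG15 is a ubiquitin-like protein attached to other proteins and USP18 removes it and shuts off the interferon receptor. Usp18 (chr6:121245906-121270917) fell in R98S clones in both assays. Its mRNA was 7.14, 10.6 and 8.60 normalized counts in R98S clones against 32.2, 22.3 and 39.2 in WT clones, with a log2 fold change of -1.70 ± 0.45 (adjusted p = 0.075). Footprints of Usp18 were 1.60, 1.68 and 8.40 against 18.2, 11.5 and 30.3, a log2 fold change of -2.28 ± 0.65 (adjusted p = 0.0796). Neither assay had an R98S clone inside the WT range, but the footprint values of R98S clones 11, 13 and 35 rest on 3, 2 and 5 reads. The mRNA call was lost without R98S clone 11 (adjusted p = 0.247), 13 (0.166) or 35 (0.112), without WT clone 36 (0.249), and without the filter on low values (0.141). The footprint call was lost without R98S clone 11 (0.231), R98S clone 13 (0.256) or WT clone 28 (0.175), and without WT clone 36 the gene was below the filter.

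Isg15 (chr4:156199424-156200818) went the other way in value, with 29.4, 30.3 and 36.1 normalized counts of mRNA in R98S clones and 10.7, 20.6 and 15.7 in WT clones. The groups did not overlap, and the log2 fold change of 1.02 ± 0.42 did not pass (adjusted p = 0.232). Its footprints were 18.1, 28.5 and 31.9 against 18.2, 16.7 and 14.5, with R98S clone 11 inside the WT range. In WT clone 28 the Isg15 mRNA value rests on 4 reads.

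The ADP-ribosyltransferase Parp9 and its partner ubiquitin ligase Dtx3l, which act together to mark histones and viral proteins with ubiquitin, and the larger Parp14 gave no call in either assay. All 3 had WT clone 28 lowest of the 6 clones in mRNA: 274 for Parp9, 277 for Parp14 and 293 for Dtx3l, against 379 to 627 in the other 5 libraries over the 3 genes. Parp14 footprints were separate, at 256, 188 and 210 in R98S clones and 259, 341 and 298 in WT clones (log2 fold change -0.46 ± 0.21, adjusted p = 0.24). Parp9 and Dtx3l share 458 exonic bases on opposite strands, and whether counting used strand is not given in the sources used here.

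Of 3 interferon-inducible GTPases, which attack vacuoles that hold pathogens, Irgm1 and Igtp were tested. Irgm1 footprints were 112, 117 and 90.7 in R98S clones and 146, 176 and 150 in WT clones, and Igtp footprints were 38.8, 41.9 and 43.7 against 64.0, 73.9 and 46.1. Both were separate and neither passed (log2 fold changes -0.56 ± 0.22 and -0.53 ± 0.29, adjusted p = 0.176 and 0.331), while the mRNA of both overlapped. Igtp shares 162 exonic bases with Irgm2 on the same strand, so its values are uncertain to that extent.

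Among 5 other induced regulators, Nmi, a partner of STAT proteins, had 351, 391 and 313 normalized counts of mRNA in R98S clones and 164, 242 and 292 in WT clones. The groups did not overlap, and the log2 fold change of 0.63 ± 0.26 did not pass (adjusted p = 0.234). Sp100, a component of nuclear bodies, had 683, 593 and 580 against 269, 576 and 570; the separation rested on small gaps to WT clones 29 and 36 and a low WT clone 28 (0.47 ± 0.30, adjusted p = 0.454). Trafd1, a feedback inhibitor of innate signalling, had 367, 341 and 401 against 408, 667 and 422 (-0.40 ± 0.24, adjusted p = 0.427). Xaf1, which promotes apoptosis, had 35.7, 26.2 and 28.4 against 26.9, 91.6 and 72.9; as for Mx1, WT clone 28 lay with the R98S clones, and the log2 fold change was -0.90 ± 0.47 (adjusted p = 0.365) with all clones and -1.42 (adjusted p = 0.0475) without it. Ifi35, the partner of NMI, overlapped in both assays.

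Counted over the members, 1 of 33 tested in mRNA was called higher and 2 lower, where the background over all 11344 genes tested was 3.03% higher and 3.91% lower. In footprints 0 of 31 were called higher and 3 lower, against 3.13% and 4.62% of 9580 genes. For the 0 higher, 2 members had an unadjusted p under 0.05 in limma, DESeq2 and edgeR on recovered reads also called 0, and limma with library weights called 3. Shares of 1 to 3 genes in about 30 are near those backgrounds. The R98S and WT clones did not overlap for 9 members in mRNA and 10 in footprints, against 23.5% and 25.3% of all genes tested. These members were 6 higher and 3 lower in mRNA, and 2 higher and 8 lower in footprints. The shares of all genes by direction were not computed, so the split is only a description. The median log2 fold change was 0.06 in mRNA and -0.12 in footprints, against 0.01 and 0.01 for all genes. For 21 of 33 members in mRNA and 16 of 31 in footprints, the difference between genotypes was smaller than the larger of the within-genotype SDs. The same share over all genes was not computed.

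**Figure D3:**
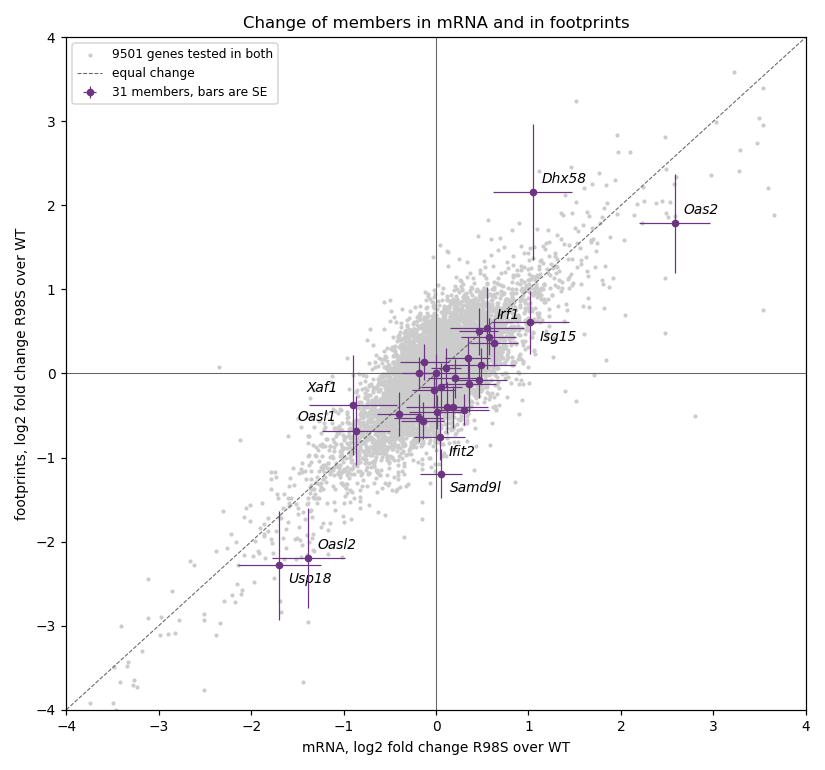
Log2 fold change of R98S over WT in mRNA (horizontal) against footprints (vertical) for the 31 members tested in both (purple, bars are SE) over the 9501 genes tested in both (grey); the dashed line is an equal change. Most members lie near the origin, Oas2 and Dhx58 lie at the upper right, Usp18 and Oasl2 at the lower left, and Samd9l and Ifit2 lie below 0 in footprints at an mRNA change close to 0.

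For TE, 26 members had at least 10 normalized counts in all 12 libraries, and 0 passed in limma, DESeq2 or edgeR. Over all 9043 genes, 0.0221% passed in limma. In limma with library weights 5 members passed, all lower, where 416 of all genes were called higher and 380 lower. Of the 26, 21 had a TE change below 0, with a median of -0.26, against 50.2% of all genes below 0 and a median of 0.00. Unadjusted p in limma was under 0.05 for 6 of the 26 members, all lower, against 7.85% of all genes in either direction and 3.69% lower. R98S clones were all below WT clones for 7 members (Irf7, Ifit2, Samd9l, Irgm1, Igtp, Nmi and Sp100) and all above for 0; over all genes the groups did not overlap for 14.8%, and were lower in R98S for 7.36%.

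Samd9l had the most negative change in log2 TE, -1.24 ± 0.24 (SE, n = 3 clones per genotype), with log2 TE of -3.65, -3.60 and -3.03 in R98S clones and -2.00, -2.12 and -2.44 in WT clones. Its adjusted p was 0.441, and it was 0.0076 with library weights. Ifit2 followed with -0.80 ± 0.28 (adjusted p = 0.629), at -2.87, -3.44 and -3.49 against -2.02, -2.52 and -2.86. Irf2 had -0.73 ± 0.28 (adjusted p = 0.629), with R98S clone 35 inside the WT range. The other members with an unadjusted p under 0.05 were Parp9 (-0.58), Sp100 (-0.55) and Irf7 (-0.48).

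WT clone 28 stood apart in TE. TE was highest in that clone for 16 of 26 members, 61.5%, against 34.2% of all genes. Without it, 19 of 26 members were still below 0, but the median change was -0.12 instead of -0.26, and no member was called. Without any 1 of the other clones, 19 to 24 members were below 0 and the median was -0.22 to -0.37. The part of WT clone 28 in the TE changes was not tested. Samd9l was at -1.15 (adjusted p = 0.237) without WT clone 28.

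**Figure D4:**
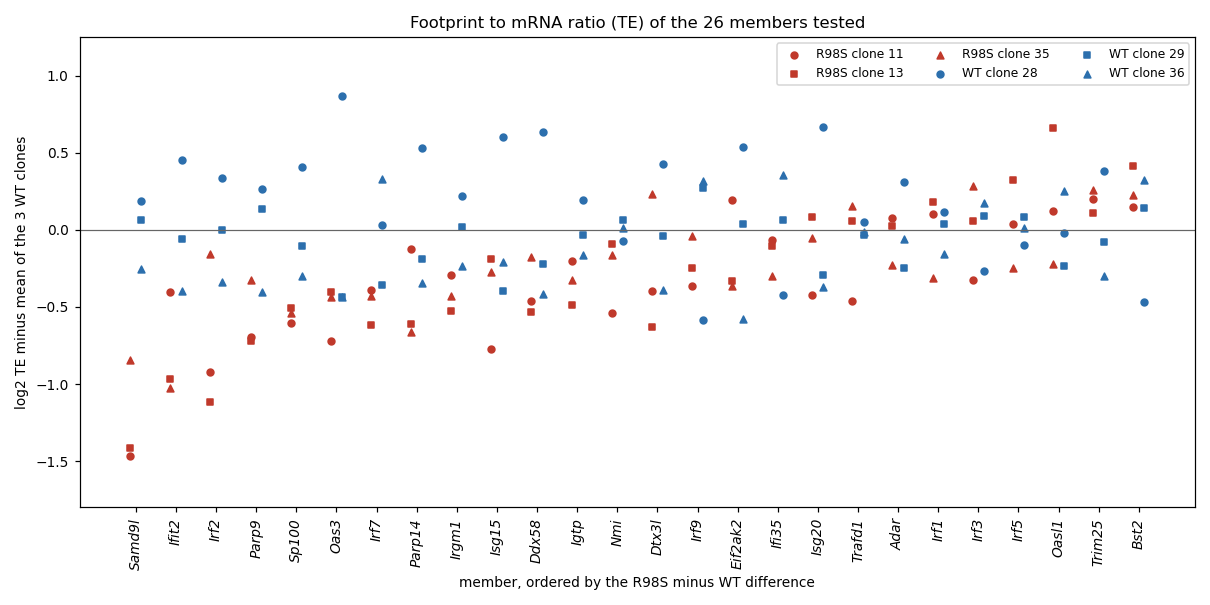
Log2 TE of the 26 members tested in each clone, minus the mean of the 3 WT clones, ordered from the most negative R98S change on the left; R98S clones are red and WT clones blue. At Samd9l all 3 red points lie below the blue points, and WT clone 28 (blue circles) tops the column for 16 of the 26 members.

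TE subtracts log2 mRNA, so low mRNA in a clone raises its TE. In WT clone 28 the median deviation of tested members from their mean over the 6 clones was -0.33 in mRNA. It was 0.04 in footprints and 0.40 in TE. The low mRNA of WT clone 28 is therefore not an observation separate from its TE. Its log2 value lay below both other WT clones for 22 of 33 members, 66.7%, against 41.9% of all genes tested, and the median difference from the mean of WT clones 29 and 36 was -0.48 against -0.02. In footprints of the same clone this held for 13 of 31 members, 41.9%, against 35.1%, with a median difference of -0.22 against 0.00. The largest differences in mRNA were for Mx1 (-2.99), Xaf1 (-1.57), Oas3 (-1.52) and Ddx58 (-1.43). In WT clone 28 these genes had 3, 10, 23 and 82 reads of mRNA. This library is also the shallowest, and the part of its depth in the pattern was not tested; members with low WT clone 28 values include Eif2ak2 (438 reads) and Ddx58 (82 reads). In footprints WT clone 29 stood out, with the highest value of the 6 clones for 14 of 31 members, 45.2%, against 19.6% of all genes. The median SD among WT clones was 0.40 on the log2 scale for members in mRNA, against 0.29 for all genes, and among R98S clones 0.25 against 0.22.

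**Figure D5:**
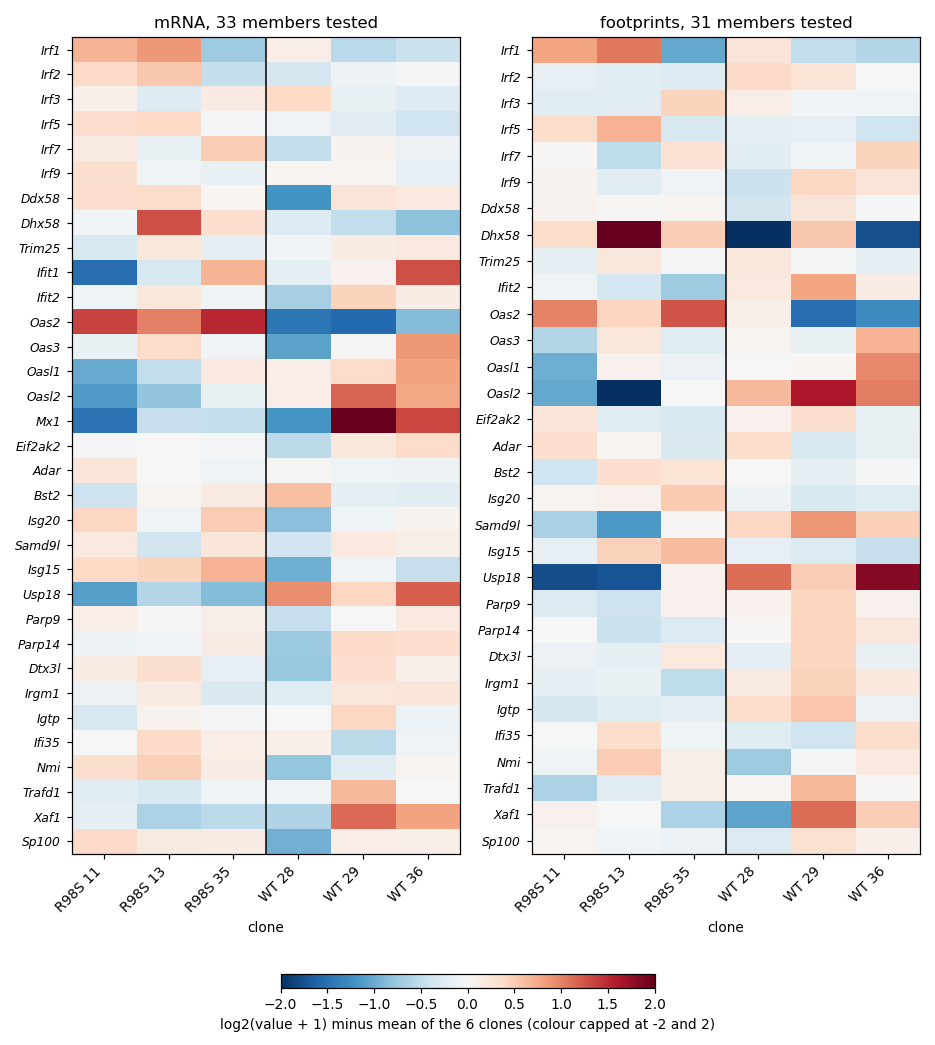
Deviation of each member from its mean over the 6 clones, in log2(value + 1), for mRNA (33 members, left) and footprints (31 members, right); red is above and blue below the mean, and the vertical line parts R98S from WT clones. In the mRNA panel WT clone 28 is blue for most members while WT clones 29 and 36 are mostly red, and in the footprint panel the column of WT clone 29 is mostly red.

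Footprints relative to mRNA also differed among members within WT clones. The ratio of footprints per kilobase of coding sequence to mRNA per kilobase of exon, which has no absolute scale because the tables were normalized separately, had a median of 1.11 for 26 members and 0.978 for 8788 genes. Samd9l was the lowest member at 0.25, above 3.87% of genes, and Irf2 the highest at 5.29, above 98.5%. The ratio also rises with exon length relative to coding length, where exons of all annotated transcripts are joined. Irf2 has 7396 exonic and 1083 coding bases, and Samd9l has 5427 and 4737. Before division by length, Irf2 had WT means of 333 footprint and 437 mRNA counts, and Samd9l 328 and 1499. The part of length in these ranks was not tested. Of the 26, 5 lay below the first quartile of genes and 7 above the third.

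The genes that carry the interferon signal were present, and the interferon genes looked up were at or near 0 in mRNA. Of 10 interferon genes, Ifnb1, Ifna1, Ifna5, Ifng, Ifnk, Ifnl2 and Ifnl3 were listed at 0 in all 6 mRNA libraries, Ifna2 had 1 read in 1 library, Ifna4 had 1 read in each of 2, and Ifne reached at most 1.72 normalized counts. None of them is in the footprint table. The receptor genes Ifnar1 (693 to 883 normalized counts of mRNA) and Ifnar2 (499 to 626) and the kinase gene Tyk2 (835 to 1362) had overlapping clones. Jak1 was at 3819, 4274 and 4185 in R98S clones and 1729, 3423 and 4827 in WT clones, with WT clone 28 again lowest, and was not called.

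Of 14 receptor and signalling genes tested in each assay, 1 fell in mRNA and 2 in footprints, and none rose; over all genes tested 3.91% fell and 3.03% rose in mRNA, and 4.62% and 3.13% in footprints. With 14 genes, counts of 0 to 2 are too small to set apart from those shares. Stat2, the ISGF3 subunit that activates transcription, had footprints of 128, 136 and 156 in R98S clones and 368, 293 and 248 in WT clones. It fell by 1.09 ± 0.21 on the log2 scale (adjusted p = 0.021), and stayed called without any 1 clone. Its mRNA was 637, 618 and 511 against 851, 821 and 681, also separate but not called (-0.41 ± 0.19, adjusted p = 0.291). Socs3, the feedback inhibitor of JAK kinases that many cytokines induce, fell in mRNA (94.5, 101 and 128 against 494, 253 and 531; -1.91 ± 0.31, adjusted p = 0.0104) and in footprints (21.8, 21.0 and 11.8 against 90.8, 46.9 and 124; -2.14 ± 0.41, adjusted p = 0.019).

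Of 14 sensing adaptors and kinases tested in each assay, 1 rose in mRNA and 2 in footprints, and none fell, against the same shares of 3.03% and 3.13% higher over all genes tested; the difference in direction from the receptor list was not tested. Nlrx1, a mitochondrial protein that dampens signalling from RNA sensors, rose in mRNA from 0, 0.825 and 7.05 in WT clones to 44.5, 56.5 and 27.5 in R98S clones, and in footprints from 2.87, 4.16 and 9.22 to 42.5, 63.7 and 26.9 (log2 fold change 2.86 ± 0.51, adjusted p = 0.014). The mRNA call (adjusted p = 0.0203) was lost without R98S clone 13 (0.11). Tlr9, the endosomal receptor for CpG DNA, rose in footprints, at 75.0, 222 and 138 against 72.6, 35.4 and 17.1 (1.87 ± 0.50, adjusted p = 0.0678), with R98S clone 11 only just above WT clone 28; the call was lost without R98S clone 13 (0.274), WT clone 29 (0.122) or WT clone 36 (0.18).

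A further list held 65 interferon-induced genes outside the 41. In mRNA 43 were tested, with 1 higher (Ifitm2) and 3 lower (Slfn2, Gbp9 and Pml), against 3.03% and 3.91% of all genes tested. In footprints 32 were tested, with 0 higher and 2 lower (Slfn2 and Pml), against 3.13% and 4.62%. For the 0 higher, 4 genes rose with an unadjusted p under 0.05 in limma. In either direction 10 of the 32 had such a p, against 20.3% of all genes. Pml, the scaffold of nuclear bodies and partner of Sp100, had footprints of 442, 520 and 593 in R98S clones and 1326, 1088 and 817 in WT clones and fell by 1.04 ± 0.21 on the log2 scale (adjusted p = 0.0257; 0.107 without R98S clone 11 and 0.1 without R98S clone 13). Its mRNA was 926, 1048 and 875 against 1262, 1791 and 1507 (-0.67 ± 0.19, adjusted p = 0.0901), a call lost without any clone except WT clone 28 (up to 0.289). Slfn2, which keeps lymphocytes quiescent, had mRNA of 7.14, 24.6 and 14.6 against 193, 33.8 and 310 (-3.11 ± 0.76, adjusted p = 0.056), a call lost without any clone except WT clone 29. Slfn2 footprints were 2.66, 6.70 and 3.36 against 57.3, 10.4 and 77.7 (-2.91 ± 0.69, adjusted p = 0.0447), a call lost without R98S clone 11 (0.14), WT clone 28 (0.144) or WT clone 36 (0.156). Ifitm2, which blocks viral entry, had 6615, 4743 and 5315 against 3789, 3530 and 3207 (0.65 ± 0.18, adjusted p = 0.0798), and Gbp9 had 0.794, 4.09 and 6.02 against 21.5, 17.3 and 17.2 (-2.29 ± 0.64, adjusted p = 0.0901). The call of Ifitm2 was lost without any 1 clone except WT clone 28 (adjusted p up to 0.325) and with chromosome medians removed (0.155). That of Gbp9 was lost without R98S clone 11 (0.261) or 13 (0.189) and in DESeq2 (0.114), and without any WT clone the gene was below the filter. TE called 0 of 30 genes of this list, against 0.0221% of all genes. Of these changes, 22 of 30 were below 0 with a median of -0.23, against 50.2% of all genes below 0.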

How the data were processed

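Ribosome footprints and mRNA were sequenced from 3 RPL10 R98S and 3 RPL10 WT Ba/F3 clones. The authors trimmed footprint reads, removed ribosomal and transfer RNA with Bowtie2, aligned to mm10 with TopHat 2.0.11 and counted footprints within coding sequences, leaving out both ends, and mRNA over exons; 3 technical replicates of each footprint library were merged. The deposited values are signal values: gene counts divided by DESeq2 size factors within each table. Whole reads could be recovered for 100% of values in every library (tolerance 0.001), and each gene of the footprint table had a read in each library. The tables were normalized separately.

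Here limma 3.58.1 (R 4.3.3) with a variance trend was fitted to log2(value + 1) for genes with a mean of at least 10 (11344 in mRNA, 9580 in footprints), and to log2 TE per clone for genes with at least 10 in all 12 libraries (9043); fold changes are on that scale, which understates those of low genes. P-values were adjusted over all genes tested by Benjamini-Hochberg, with calls under 0.1. DESeq2 1.42.0 and edgeR 4.0.16 on recovered reads, other pseudocounts, filters and scalings, library weights and leaving out each clone were alternatives. An exact two-sided permutation test of 3 against 3 clones cannot go below p = 0.1, so none was used. Footprint and mRNA libraries were paired by clone number: their deviations from genotype means correlated by 0.519 on average (0.218 to 0.681). Clones of R98S and WT share no number and were not paired. Clones are separate cultures of 1 line, and each was sampled once. Babel, which the study used for TE, was not run. Of 41255 gene names, 89.3% matched the GENCODE annotation of GRCm38 used for lengths and positions. The code was tested on simulated data.

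Members, gene lists and tests were chosen with earlier results of these data known. Values are given by clone for members called in mRNA, footprints or TE, the 3 highest per length, those listed at 0 throughout 1 genotype only, and Irf7, Irf9, Isg15 and Ifit1; from the pathway lists, called genes with separate groups, Stat2, Ifnar1, Ifnar2, Tyk2, Jak1 and the interferon genes are named; 1 further gene of that rule is not reported here. Other genes were given by clone after their values were seen.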

Additional observations from a re-analysis of the deposited data

How the results depend on the processing

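Among the members, the count higher in mRNA was 1 and stayed 1 except with library weights (5), a minimum of 50 (0, since Oas2 was then not tested) and without 1 clone (1 to 2). The count lower in mRNA, 2, was 1 with TMM scaling or with chromosome medians removed, 6 with library weights, 0 at a minimum of 50 or with no filter on low values, 3 with DESeq2 (Mx1 added), and 0 to 4 without 1 clone. In footprints the count higher, 0, was 3 with library weights, 1 with no filter and 0 to 2 without 1 clone, and the count lower, 3, was 1 at a minimum of 50 and 0 to 3 without 1 clone. In TE the count lower, 0, was 5 with library weights (Ifit2, Irf2, Irf9, Parp9 and Samd9l), and 0 without any 1 clone. With the replicate block left out of TE, so that the 2 libraries of a clone were not paired, 0 members were called higher and 0 lower, and 3 genes in all against 2. The R98S and WT clones were not paired in any setting. Leaving out a clone also leaves fewer samples; the cause of the other shifts was not tested.

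Over all genes, calls in mRNA were 344 higher and 443 lower, and became 591 and 692 with DESeq2, 1454 and 1505 with library weights, and 130 to 491 and 182 to 622 without 1 clone. In footprints they were 300 and 443, and became 469 and 626 with DESeq2, 882 and 917 with library weights, and 65 to 506 and 164 to 642 without 1 clone. In TE they were 0 and 2, and became 0 and 6 with DESeq2, 416 and 380 with library weights and 0 and 4 without the filter. The median change of members in mRNA was 0.06 and became -0.06 without WT clone 28.

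Of 33 members in mRNA, 31 in footprints and 26 in TE, 23, 23 and 17 kept 1 sign in every setting, and none of those that turned had an unadjusted p under 0.05. Those named with a fold change that turned were Irf9 in mRNA (-0.16 with chromosome medians removed, -0.091 to 0.14 without 1 clone), Bst2 in mRNA (0.084 with chromosome medians removed, -0.27 to 0.14 without 1 clone), Eif2ak2 in mRNA (-0.30 to 0.15 without 1 clone) and in TE (-0.46 to 0.10), Samd9l in mRNA (-0.018 with library weights, -0.13 to 0.24 without 1 clone), Irf3 in mRNA (-0.0079 with DESeq2, -0.17 with chromosome medians removed, -0.13 to 0.20 without 1 clone), Trim25 in footprints (-0.12 with chromosome medians removed, -0.10 to 0.12 without 1 clone), Irf7 in footprints (-0.30 to 0.10) and Irf9 in footprints (-0.42 to 0.0059). Depth limits the members under 10 normalized counts, and the footprints of Oas2, Oasl2, Usp18 and Dhx58.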
